A study of Mus musculus with 8 samples.

Results

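Of the 14883 genes in the table, 7 are described here across the epithelial cell classes of the pubertal mouse mammary gland. They are Elf5, Ehf, Kit, Notch1, Hey1, Hes1 and Cd14, found in the table by symbol and chosen as regulators and surface markers of luminal progenitor cells together with genes of the Notch pathway. Ducts and their terminal end buds, the club-shaped growing ends, were dissected from the 4th and 5th mammary glands of mice of 5 weeks, and live cells were sorted into plates. The strain is given as mixed, and the 8 libraries of 96 wells comprise 4 from plate 2 and 4 from plate 1. Neither the tissue part nor the animal behind each library is stated. All p-values therefore measure only how these libraries vary, and that variation may be technical.

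The mammary epithelium has an outer basal layer of contractile cells and an inner luminal layer, in which hormone-sensing cells carry hormone receptors and secretory-lineage cells give rise to milk-producing cells. Luminal progenitors belong to the secretory lineage and are known for Kit at the cell surface and for Elf5, a transcription factor needed for the milk-producing fate. In the Notch pathway a ligand on a neighbouring cell leads to cleavage of the receptor, whose inner part joins the DNA-binding protein RBPJ and switches on repressors of the Hes and Hey families.

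Each gene was placed on mm10, the build named in the submitters' processing notes, with the GENCODE M21 annotation, and all are protein-coding. The genes of Elf5 (chr2:103411688-103450989, plus strand) and Ehf (chr2:103263433-103303278, minus strand), which code for related ETS transcription factors, lie 108409 bp apart with 3 annotated genes between them, of which 0 are protein-coding. Kit, the receptor for stem cell factor, lies at chr5:75574916-75656722 on the plus strand. Notch1, the receptor, lies at chr2:26457903-26516663 on the minus strand and overlaps 0610009E02Rik and Gm13568 on the plus strand. Whether counting used the strand is not given in the sources used here, so reads of Notch1 and of these overlapping genes may not have been told apart. Hey1 (chr3:8663359-8667256, minus strand) and Hes1 (chr16:30064384-30067796, plus strand) code for Notch-responsive repressors.

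The stretches before the start sites of Elf5 and Kit are shown because these genes were found in the same cells. The RefSeq promoter table (GRCm38.p6) held 5 start sites of 3 of the genes, Elf5, Kit and Notch1. Each sequence gives the 250 bases before a start, 5′ to 3′ on the gene's strand. Capitals mark GGAA, the core of sites bound by ETS factors, on either strand (TTCC on the other), a motif chosen after the values were seen. The Elf5 sequences are chr2:103411848-103412097 and chr2:103423818-103424067, and the Kit sequence is chr5:75574737-75574986, all on the plus strand.
Elf5, first start: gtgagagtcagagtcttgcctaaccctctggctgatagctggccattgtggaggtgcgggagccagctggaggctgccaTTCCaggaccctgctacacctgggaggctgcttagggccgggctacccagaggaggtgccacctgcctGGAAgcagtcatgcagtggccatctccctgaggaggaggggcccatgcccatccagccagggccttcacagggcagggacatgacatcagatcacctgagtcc
Elf5, second start: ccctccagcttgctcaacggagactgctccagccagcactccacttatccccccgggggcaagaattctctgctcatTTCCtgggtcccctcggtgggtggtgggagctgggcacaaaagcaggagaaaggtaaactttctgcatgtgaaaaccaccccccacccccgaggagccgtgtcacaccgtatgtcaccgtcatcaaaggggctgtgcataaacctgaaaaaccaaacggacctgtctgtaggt
Kit: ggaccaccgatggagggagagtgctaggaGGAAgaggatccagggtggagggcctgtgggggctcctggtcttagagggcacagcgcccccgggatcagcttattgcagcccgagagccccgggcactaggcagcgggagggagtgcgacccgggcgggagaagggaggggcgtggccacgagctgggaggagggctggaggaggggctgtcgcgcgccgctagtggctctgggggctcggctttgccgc
The first Elf5 start had 2 matches and the second had 1, and Kit had 1. All of the 32851 promoters in the table were searched alike, and 93.4% held GGAA in this window with a median of 3 matches. The core of the RBPJ site, TGGGAA on either strand, which itself holds GGAA, was not in the window of any of the 5 starts, while 21.6% of all promoters held it.

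Cells were wells with at least 1500 transcripts and 500 genes, which left 114 of 768. A cell was called luminal when Krt8, Krt18 and Krt19 together exceeded Acta2, Tagln and Myl9, basal in the reverse case, and a luminal cell was called hormone-sensing when Prlr exceeded Trf and secretory otherwise. This gave 28 secretory, 14 hormone-sensing and 66 basal cells, with 6 cells in neither class. Median depth was 7144 transcripts in secretory, 18032 in hormone-sensing and 13518 in basal cells. Libraries 1 and 3 of both plates held all luminal cells, and libraries 2 and 4 held all but 2 of the basal cells, so in a comparison of luminal with basal cells the class cannot be told apart from the library. In 15 of the kept cells, 8 of them basal and 1 secretory, markers of a non-epithelial cell type outnumbered the epithelial markers, and all 8 such basal cells were on plate 1. Summed over the basal cells of plate 1 library 2, endothelial markers stood at 16.4 transcripts per 10000, the highest of the libraries with at least 3 basal cells.

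All 7 genes were higher in secretory than in hormone-sensing cells. This comparison, within libraries, used the 3 libraries with at least 3 cells of both classes, plate 2 libraries 1 and 3 and plate 1 library 3. Summed transcripts of each class in each library entered edgeR's quasi-likelihood test, with the library as a block. Of 1806 genes tested, 241 passed a Benjamini-Hochberg adjusted p of 0.05, which is 13.3%, with 7.53% higher and 5.81% lower in secretory cells. All 7 of the 7 genes passed as higher. All but Hes1 lay below the filter on low counts in most or all hormone-sensing sums. They entered the test through their secretory sums, where they are high, so they could hardly come out as lower. None of the 7 set the classes, which were read from Prlr and Trf in the same cells. Levels are given as transcripts per 10000 of a cell class, from tags at the 3′ ends of transcripts, and are compared between classes rather than between genes.

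Elf5 stood at 4.85 and 6.40 transcripts per 10000 in secretory cells of plate 2 libraries 1 and 3, and at 3.47 and 2.78 in those of plate 1 libraries 1 and 3. In hormone-sensing cells it stood at 0.137 in plate 2 library 1, 0 in plate 2 library 3 and 0.0932 in plate 1 library 3. Every secretory library was above every hormone-sensing one. The log2 change was 5.58 ± 0.81 (SE, 3 libraries, edgeR adjusted p = 6e-10). In the 3 libraries with both classes, 100 Elf5 transcripts were counted in secretory cells against 3 in hormone-sensing cells, a ratio of 54.8 (95% interval 18.2 to 270.0, counting error only, as for all intervals here).

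Ehf stood at 4.04 and 4.03 transcripts per 10000 in secretory cells of plate 2 libraries 1 and 3, and at 3.05 and 3.71 in those of plate 1 libraries 1 and 3. Hormone-sensing cells had 0.206 and 1.91 in plate 2 libraries 1 and 3 and 0.28 in plate 1 library 3. The libraries did not overlap, and the secretory levels lay closest together of the 7 genes, at 3.71 ± 0.46 (SD, n = 4). The log2 change was 2.71 ± 0.65 (SE, edgeR adjusted p = 0.000421). Both ETS genes thus passed, but the hormone-sensing cells of plate 2 library 3 held 15 of the 21 Ehf transcripts of that class and 0 of its 3 Elf5 transcripts.

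Kit stood at 10.5 and 7.36 transcripts per 10000 in secretory cells of plate 2 libraries 1 and 3, and at 9.47 and 5.17 in those of plate 1 libraries 1 and 3. A single Kit transcript was counted in all 14 hormone-sensing cells, in plate 1 library 3. In the 3 libraries with both classes, 136 against 1 transcript gave a ratio of 223 (95% interval 39.4 to 8888). The fitted log2 change of 7.47 ± 0.87 (SE, edgeR adjusted p = 2.58e-15) depends on the prior count, since it rests on that transcript. Kit had the largest fitted change of the 7 genes.

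Notch1 stood at 1.62 and 4.47 transcripts per 10000 in secretory cells of plate 2 libraries 1 and 3, and at 1.89 and 3.45 in those of plate 1 libraries 1 and 3. Hormone-sensing cells had 0.411 and 0.893 in plate 2 libraries 1 and 3 and 0.652 in plate 1 library 3. The libraries did not overlap, and the log2 change was 2.43 ± 0.64 (SE, edgeR adjusted p = 0.00212).

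The Notch-responsive repressors differed in how sharply they separated the classes. Hey1 stood at 2.42 and 6.57 transcripts per 10000 in secretory cells of plate 2 libraries 1 and 3, and at 2.32 and 1.99 in those of plate 1 libraries 1 and 3. Hormone-sensing cells had 0 and 0.128 in plate 2 libraries 1 and 3 and 0.186 in plate 1 library 3. The libraries did not overlap, with 93 against 3 transcripts in the libraries with both classes, a ratio of 50.9 (95% interval 16.9 to 251) and a log2 change of 4.99 ± 0.83 (SE, edgeR adjusted p = 6.79e-08).

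Hes1 stood at 16.2 and 3.86 transcripts per 10000 in secretory cells of plate 2 libraries 1 and 3, and at 1.79 and 5.43 in those of plate 1 libraries 1 and 3. Hormone-sensing cells had 4.25 and 1.40 in plate 2 libraries 1 and 3 and 1.40 in plate 1 library 3. Here the classes overlapped across libraries, while within each of the 3 shared libraries the secretory level was the higher one. The log2 change was 1.89 ± 0.54 (SE, edgeR adjusted p = 0.00541), and without the library block the adjusted p was 0.0707. Pooled over the 3 libraries, 105 against 88 transcripts gave a smaller ratio, 1.96 (95% interval 1.46 to 2.63), in which plate 2 library 1 carried 20 of the secretory and 62 of the hormone-sensing transcripts. Among tested genes, 12.1% had every secretory sum above every hormone-sensing sum. Of the 7 genes, 6 were of that kind, all but Hes1, and these 6 had entered the test through their secretory sums.

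Cd14 stood at 7.27 and 4.03 transcripts per 10000 in secretory cells of plate 2 libraries 1 and 3, and at 3.89 and 6.76 in those of plate 1 libraries 1 and 3. Hormone-sensing cells had 0.137 and 0.51 in plate 2 libraries 1 and 3 and 0.466 in plate 1 library 3. The libraries did not overlap, and the log2 change was 4.13 ± 0.66 (SE, edgeR adjusted p = 2.34e-08). Cd14, the co-receptor that hands lipopolysaccharide to Toll-like receptor 4, lies at chr18:36725067-36726798 on the minus strand and is also a macrophage gene. In secretory cells the summed macrophage and dendritic markers ranged from 0 to 5.05 per 10000, 8 of the 13 genes in the table were found, and Lyz2, Tyrobp, Fcer1g, C1qa and C1qb were at 0. Of the 52 marker transcripts, 39 were in 1 cell of plate 1 library 1, a library outside this test, and that cell held 0 Cd14 transcripts. The part of the others in the result was not tested.

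These calls rest on few libraries and on a spread pooled over genes. Without plate 2 library 1, which had only 3 secretory cells and left 2 libraries, 11 genes passed and none of the 7 did, with edgeR adjusted p between 0.0536 for Kit and 0.185 for Ehf and the sign unchanged. Without plate 1 library 3, Ehf (0.242), Notch1 (0.317) and Hes1 (0.360) did not pass and 120 genes did. Without plate 2 library 3, Hey1 (0.0501) and Notch1 (0.241) did not pass and 140 genes did. With no filter on low counts, Notch1 (0.146) and Hes1 (0.346) did not pass.

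**Figure D1:**
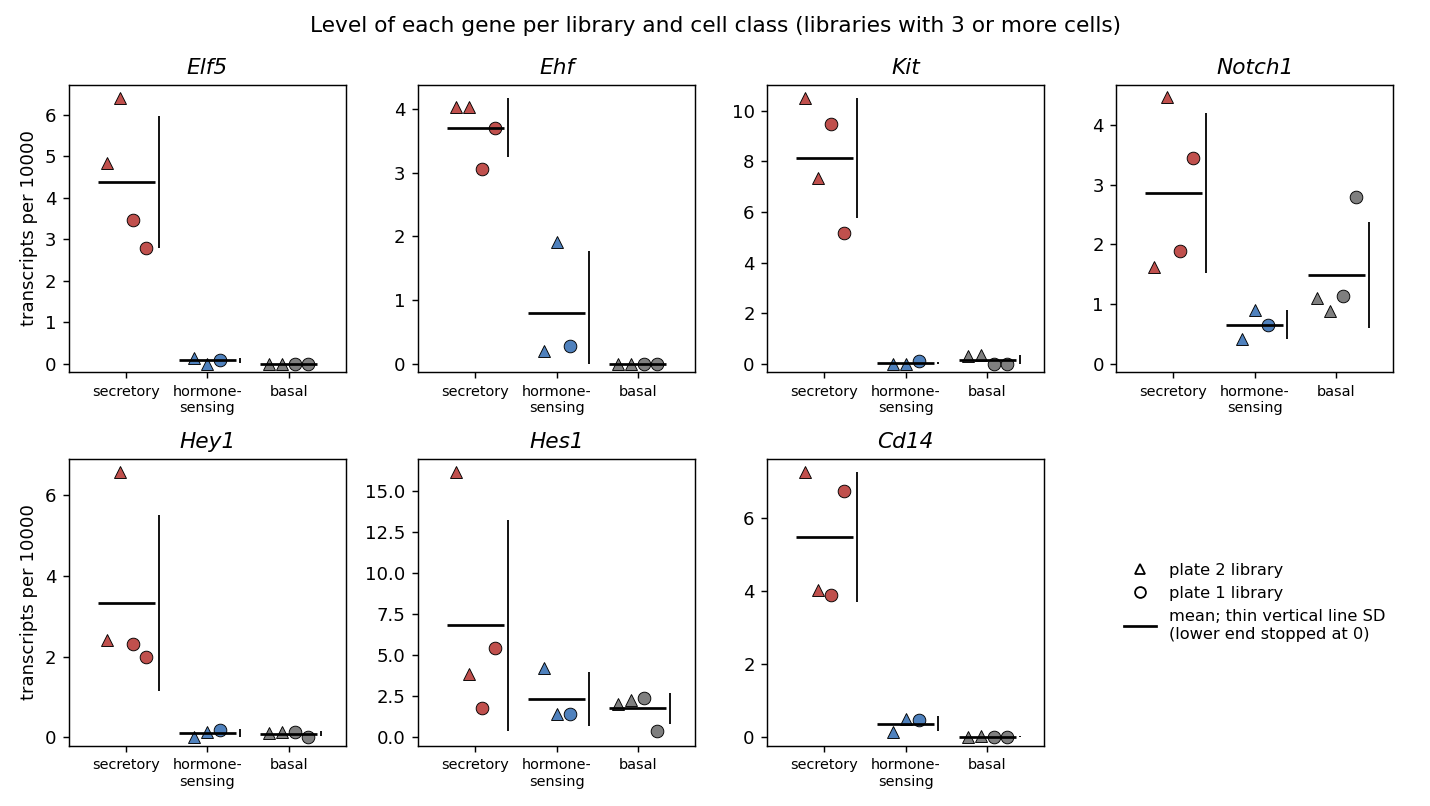
Transcripts per 10000 of each of the 7 genes (y axes, linear, scaled per gene) in secretory, hormone-sensing and basal cells, 1 point per library with at least 3 cells of the class, triangles for plate 2 and circles for plate 1, horizontal line the mean and vertical line the SD. Elf5 and Ehf are at 0 in all 4 basal libraries, and Hes1 in secretory cells spreads from 1.79 to 16.2.

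The share of cells with a transcript gave the same order of secretory before hormone-sensing cells for each gene. Kit was found in 25 of 28 secretory cells, 89.3% (exact binomial 95% interval 71.8 to 97.7), in 1 of 14 hormone-sensing cells, 7.14% (0.181 to 33.9), and in 9 of 66 basal cells, 13.6% (6.43 to 24.3). Elf5 was found in 71.4% of secretory cells (51.3 to 86.8) and in 14.3% of hormone-sensing cells (1.78 to 42.8). It was found in 0 of 66 basal cells (exact interval 0 to 5.44), and 3 cells of 66, the floor used for counts of 0, would be 4.55%.

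Ehf was likewise found in 0 of 66 basal cells, but in 50.0% of hormone-sensing cells (23.0 to 77.0), against 71.4% of secretory cells. Cd14 was found in 85.7% of secretory, 42.9% of hormone-sensing and 3.03% of basal cells. Hes1 was the most widely found, in 92.9%, 85.7% and 65.2% of cells in the same order of classes. Notch1 was found in 82.1% of secretory, 50.0% of hormone-sensing and 48.5% of basal cells, and Hey1 in 60.7%, 28.6% and 13.6%.

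Secretory cells were the shallowest of the 3 classes, so shares were also set at equal depth. With each cell thinned to 1500 transcripts, which left out 0 cells, Kit was expected in 59.8% of secretory, 0.238% of hormone-sensing and 1.94% of basal cells. Ehf was expected in 37.0% of secretory and 7.49% of hormone-sensing cells, and Cd14 in 52.3% and 7.61%. For Hes1 the thinned shares were 54.8% of secretory, 28.0% of hormone-sensing and 22.9% of basal cells. In the 654 wells not kept, a transcript of a given gene was found in 0.917% (Hey1) to 5.96% (Hes1).

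**Figure D2:**
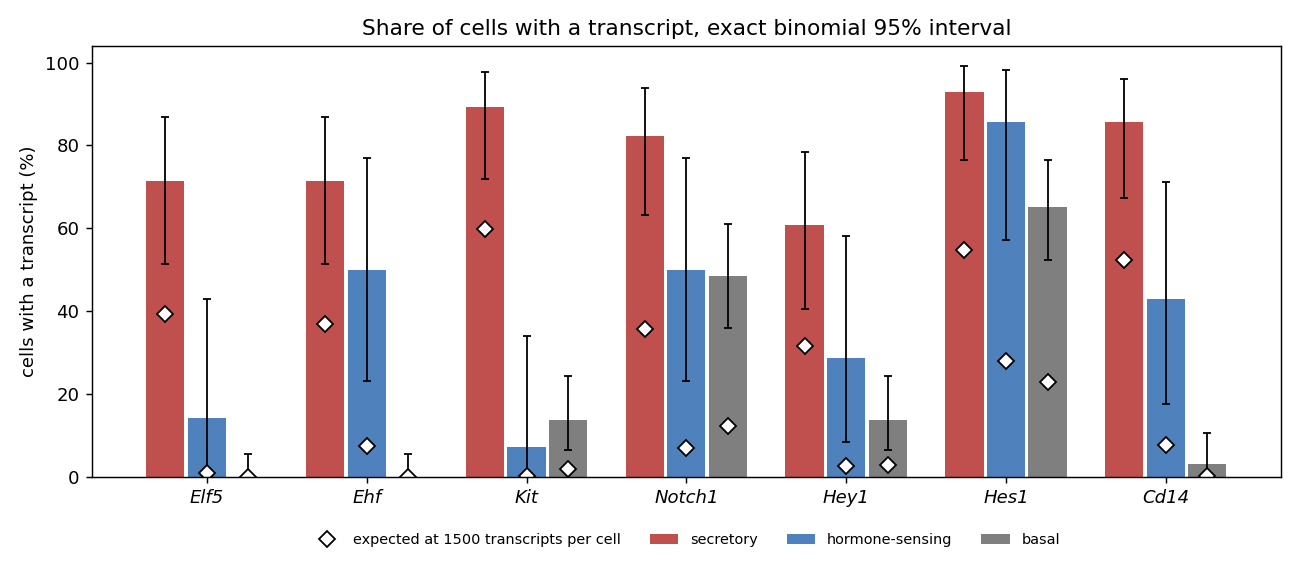
Percentage of cells with at least 1 transcript (y axis) of each gene in secretory, hormone-sensing and basal cells, with exact binomial 95% intervals as error bars and diamonds for the share expected with every cell thinned to 1500 transcripts. For Ehf the bars of secretory and hormone-sensing cells stand at 71.4% and 50.0%, and the diamonds at 37.0% and 7.49%.

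Kit and Elf5 were found together in secretory cells. Both were found in 20 of the 28 cells, Kit alone in 5, Elf5 alone in 0 and neither in 3. Kit was thus found in all 20 Elf5-positive cells and in 5 of 8 Elf5-negative ones, 62.5% (24.5 to 91.5). Cells with both had a median of 10157 transcripts, and the other secretory cells 4623.5. Thinning to 1500 transcripts also thinned Elf5, which was then expected in 39.3% of secretory cells. Cells with Elf5 at full depth thus partly counted as Elf5-negative, and the thinned groups are not the 20 and 8 cells above. In these redrawn groups the expected share of cells with Kit was 69.7% among Elf5-positive and 53.5% among Elf5-negative secretory cells. Among the 14 hormone-sensing cells both were found in 1, the cell with the only Kit transcript of that class, which held 44963 transcripts, a transcript each of Elf5, Kit and Hey1, and Prlr at 226 against Trf at 5.

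Hey1 followed Elf5 more closely than the other Notch genes did. It was found in 15 of 20 Elf5-positive secretory cells, 75.0% (50.9 to 91.3), and in 2 of 8 Elf5-negative ones, 25% (3.19 to 65.1), intervals that overlap. After thinning, with the groups redrawn by the thinned Elf5 counts, the shares were 44.5% and 23.3%. For Notch1 the full-depth shares were 95% and 50.0%, but the thinned ones were 35.5% and 35.9%. Thinned shares in the redrawn Elf5-positive and Elf5-negative groups were also close for Hes1 (54.3% and 55.0%) and for Cd14 (50.3% and 53.6%). They stood at 33.7% and 39.1% for Ehf.

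Against Kit the same split rests on only 3 Kit-negative secretory cells. Hey1 was found in 17 of 25 Kit-positive cells, 68.0%, and in 0 of 3 Kit-negative ones. Hes1 was found in 24 of 25 Kit-positive and 2 of 3 Kit-negative cells, and Ehf in 18 of 25 and 2 of 3. The 3 cells without Kit and Elf5 were unlike each other. Plate 2 library 3 gave a cell with 5387 transcripts, Trf at 40, Csn3 at 27 and 17 transcripts of Cd14, the highest Cd14 count of any cell. Plate 1 library 3 gave a cell near the depth minimum, with 1505 transcripts, which had Prlr and Trf equal at 2 transcripts each and so counted as secretory by the rule alone, and plate 1 library 1 the cell led by macrophage markers, with 39 such transcripts and 0 of the 7 genes.

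Counted per cell, a median of 6 of the 7 genes was found in secretory cells, 3 in hormone-sensing and 2 in basal cells. All 7 were found in 9 secretory cells and in 1 hormone-sensing cell.

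**Figure D3:**
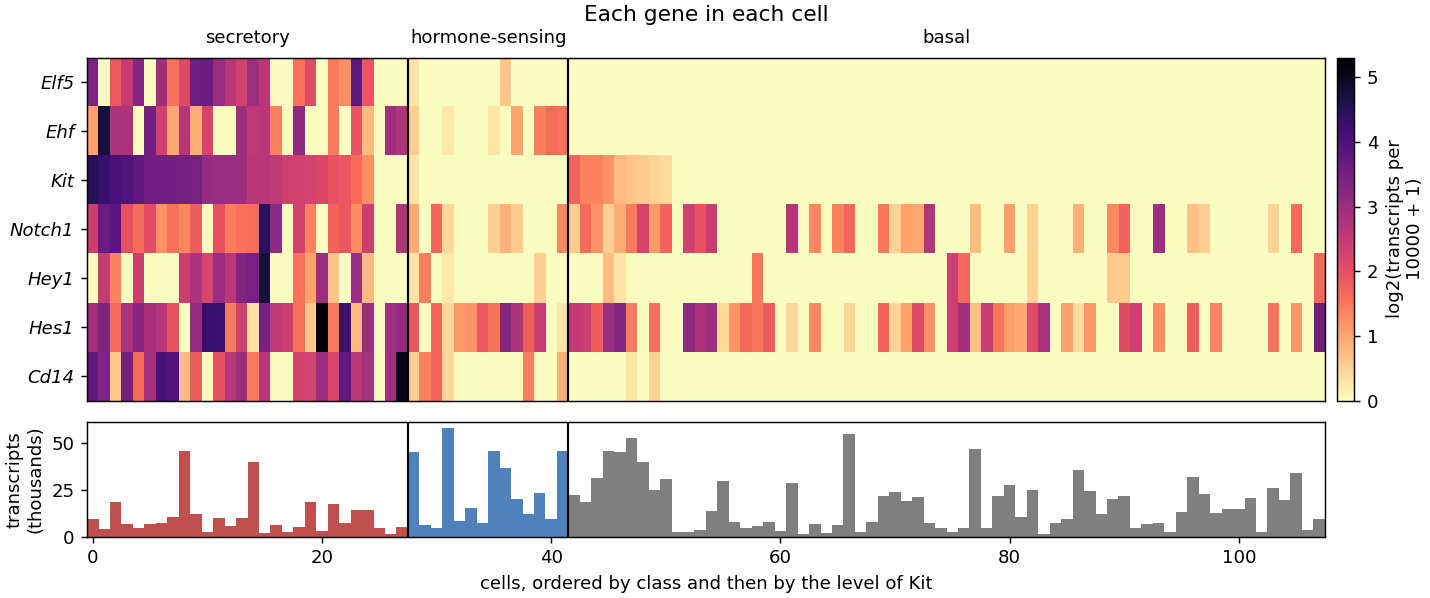
Level of each gene in every classed cell, as log2(transcripts per 10000 + 1) in colour, cells in columns ordered by class (secretory, hormone-sensing, basal) and then by the level of Kit, with the total transcripts of each cell below. The 9 basal cells with Kit stand at the left of the basal block, and the rows of Elf5 and Ehf are empty in basal cells.

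**Figure D4:**
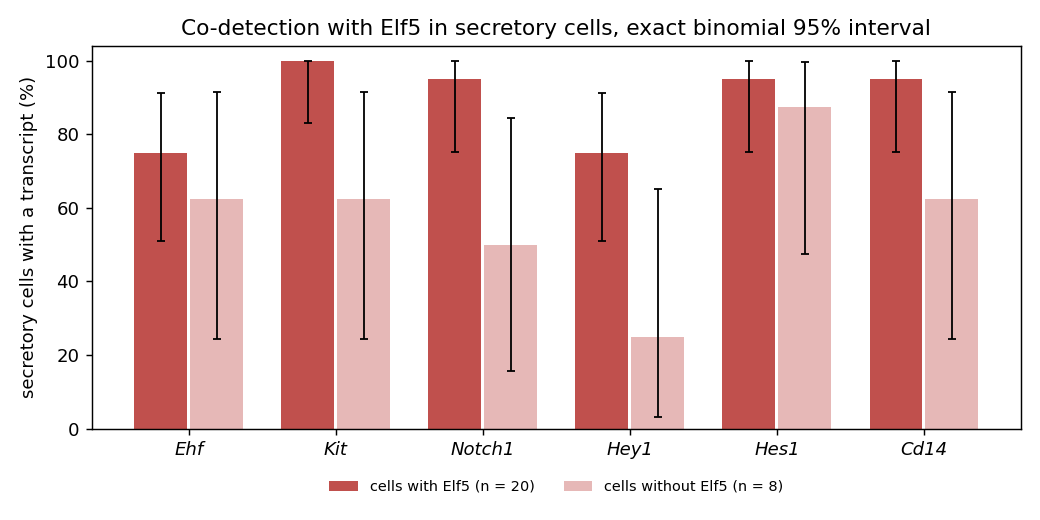
Percentage of secretory cells with at least 1 transcript (y axis) of each of the other 6 genes among the 20 cells with Elf5 and the 8 cells without it, with exact binomial 95% intervals. Kit stands at 100% and 62.5%, and Hey1 at 75.0% and 25%.

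Over the 42 luminal cells, and among 5704 genes found in at least 25% of them, the gene most like Elf5 in log2 level was Kit (Pearson r = 0.69), and Hey1's most alike included Elf5 (0.60). Within the 28 secretory cells alone these were 0.44 for Elf5 with Kit and 0.47 for Elf5 with Hey1. The gene most like Kit was Trf (0.80), which set the classes, followed by Nfib (0.76), a transcription factor. Hey1 was most like C2cd4b (0.64) and Notch1 most like Atp2b1 (0.70), a calcium pump, and Ehf stood close to Tcf7l2 (0.54) and to Notch1 (0.51). Cd14 was most like Mfge8 (0.71), a milk fat globule protein. Hes1 had the weakest leading value, 0.49 with Zfp36l1, and reached at most 0.38 with any of the other 6 genes. Cells of 1 library share its depth and handling, and the luminal values carry the difference between the luminal classes, so these values are descriptions.

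Against basal cells, the luminal cells as a whole were higher in Kit and Cd14, and did not differ past the threshold in Notch1 and Hes1. The comparison set luminal sums of plate 2 libraries 1 and 3 and plate 1 libraries 1 and 3 against basal sums of plate 2 libraries 2 and 4 and plate 1 libraries 2 and 4. Of 3420 genes tested with edgeR's quasi-likelihood test, 505 passed, 14.8%, with 6.7% higher and 8.07% lower in luminal cells. Of the 7 genes, 4 were tested and 2 passed. These 2, Kit and Cd14, entered through their luminal sums, where they are high, and could hardly come out as lower. Elf5, Hey1 and Ehf fell under the filter on low counts.

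Kit stood at 0.821 and 4.37 transcripts per 10000 in luminal cells of plate 2 and at 8.91 and 2.19 in those of plate 1, against 0.29 and 0.341 in basal cells of plate 2 and 0 and 0 in those of plate 1. The groups did not overlap, and the log2 change was 4.08 ± 0.76 (SE, n = 4 each, edgeR adjusted p = 0.00207). The lowest luminal value, in plate 2 library 1, came from the library where secretory cells gave 12378 of 158329 luminal transcripts. Cd14 stood at 0.695 and 2.60 on plate 2 and 3.76 and 3.06 on plate 1 in luminal cells, against 0.017 and 0.0284 on plate 2 and 0 and 0 on plate 1 in basal cells. With 155 against 2 transcripts, the ratio was 136 (95% interval 37.0 to 1132) and the edgeR adjusted p was 3.74e-05.

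Elf5 had 136 transcripts in luminal and 0 in basal sums, and Ehf 129 and 0. Set against a floor of 3 transcripts over the basal group, Elf5 was at least 79.5-fold higher and Ehf at least 75.4-fold higher in luminal cells. Hey1 had 119 against 12 transcripts, a ratio of 17.4 (9.59 to 34.6). When no filter on low counts was used, 4.75% of 14386 genes passed as higher and all of Elf5, Ehf and Hey1 were among them (edgeR adjusted p = 5.67e-14, 6.41e-14 and 4.54e-08 in that order). That setting lowered other p-values too, with Cd14 going from 3.74e-05 to 2.46e-14. In the 7 alternatives that tested the 3 genes, all passed, with edgeR adjusted p up to 0.0052 for Elf5, 0.00306 for Ehf and 0.0285 for Hey1. The luminal and basal sums of these 3 genes did not overlap. Among the tested genes, 8.74% had every luminal sum above every basal sum.

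Notch1 averaged 1.78 ± 1.02 transcripts per 10000 in luminal and 1.48 ± 0.89 in basal sums (SD, n = 4 each), with overlap and a log2 change of 0.36 ± 0.50 (SE, edgeR adjusted p = 0.722). Hes1 averaged 3.20 ± 1.46 in luminal and 1.78 ± 0.94 in basal sums, also with overlap, and the log2 change was 0.82 ± 0.44 (SE, edgeR adjusted p = 0.269). Basal Notch1 levels were 1.11 and 0.881 on plate 2 and 1.14 and 2.80 on plate 1, all above the highest hormone-sensing level except 0.881. The basal and hormone-sensing levels of Notch1 were not tested against each other.

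Kit in basal cells was found on plate 2 alone, in 9 of 50 cells with 29 transcripts in all, against 0 of 16 basal cells of plate 1. The plate 1 cells held 181397 transcripts, so that a count of 0 allows up to 0.165 per 10000, and plate 2 had 0.308. Of the 16 cells, 8 were led by markers of another cell type, and the other 8 held 138450 transcripts, where a count of 0 allows 0.217 per 10000. Between plates, with the class in the model, 0 of 3420 genes passed edgeR's test, 0.0%, with 201 at an unadjusted p under 0.05, and DESeq2 called 3. The 4 of the 7 genes that were tested had edgeR adjusted p between 0.897 for Cd14 and 0.988 for Kit.

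Among the other genes of the Notch list, few reached the depth needed for a test. Of 41 listed genes, 6 were tested between the luminal classes, and the 3 that passed, all higher in secretory cells, were Notch1, Hes1 and Hey1 themselves. The median log2 change of the 6 was 1.51, against -0.10 over all tested genes, but it includes these 3. None of the other 3 passed, and among them Psenen changed by 0.44 ± 0.67 (SE, edgeR adjusted p = 0.796). Notch3, another receptor of the family, had a log2 change of 1.12 ± 0.72 (SE, edgeR adjusted p = 0.381). Adam10, the protease that makes the first cut in the receptor after a ligand binds, had -1.60 ± 0.60 (edgeR adjusted p = 0.0586). Adam10 averaged 1.43 ± 0.44 transcripts per 10000 in secretory and 4.53 ± 1.27 in hormone-sensing cells (SD, n = 3 each), without overlap, and it passed under 4 of the alternatives.

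Against basal cells 10 genes of the Notch list were tested and 1 passed as higher, Notch3, where 6.7% of all tested genes did. Notch3 entered through its luminal sums and could hardly come out as lower. It averaged 1.13 ± 0.17 transcripts per 10000 in luminal and 0.116 ± 0.181 in basal sums (SD, n = 4 each), a log2 change of 3.75 ± 0.62 (SE, edgeR adjusted p = 0.00092). The ligands were too sparse for a test. Jag1 had 0 transcripts in secretory cells, 0.563 per 10000 (19 transcripts) in hormone-sensing and 0.659 per 10000 (74) in basal cells. Jag2 had 0 in both luminal classes and 0.356 per 10000 (40) in basal cells. Dll1 stood at 0.269 per 10000 (8) in secretory, 0 in hormone-sensing and 0.677 per 10000 (76) in basal cells. A count of 0 allows 0.101 per 10000 in the summed secretory cells and 0.0889 in the hormone-sensing ones.

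For Kit signalling, 3 of 15 listed genes were tested between the luminal classes, and Kit and Pik3r1 passed as higher in secretory cells. Pik3r1, a regulatory subunit of phosphoinositide 3-kinase, changed by 1.68 ± 0.60 on the log2 scale (SE, edgeR adjusted p = 0.038), and did not pass under 6 alternatives, among them the removal of any 1 of the 3 libraries. Kitl, the ligand, averaged 2.42 ± 2.22 transcripts per 10000 in secretory and 1.82 ± 0.94 in hormone-sensing cells (SD, n = 3 each; adjusted p = 0.575 by edgeR). Against basal cells, 7 were tested. Kit passed as higher, and Kitl (-0.95 ± 0.29, adjusted p = 0.0425), Spry1 (-2.52 ± 0.63, 0.0152) and Dusp6 (-2.73 ± 0.35, 0.000121) as lower by edgeR. Over all tested genes 6.7% passed as higher and 8.07% as lower. Spry1 averaged 0.207 in luminal sums, so it entered mostly through its basal sums. Kitl averaged 2.12 ± 0.60 in luminal and 4.18 ± 0.94 in basal sums. It did not pass with plate as a covariate (0.0517), with no filter (0.0827), without cells led by another cell type (0.0737), or without any 1 library except plate 1 library 4 and plate 2 library 3 (up to 0.115). Spry1 did not pass without plate 2 library 4 (0.0660).

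Of 15 ETS factors, 6 were tested between the luminal classes, and Elf5 and Ehf passed. Elf3, an epithelial relative of Elf5, averaged 1.31 ± 1.00 transcripts per 10000 in secretory and 1.77 ± 0.57 in hormone-sensing cells (SD, n = 3 each, edgeR adjusted p = 0.863). The median of the 6 was -0.06 on the log2 scale. Against basal cells 7 were tested. Elf3 (4.41 ± 0.52, adjusted p = 5.46e-05) and Ets2 (1.57 ± 0.38, 0.0125) passed as higher, and Etv4 (-4.35 ± 0.73, 0.000962) and Etv5 (-2.70 ± 0.64, 0.0109) as lower by edgeR. Over all tested genes 6.7% passed as higher and 8.07% as lower. Elf3 averaged 0.0398 in basal sums and Etv4 0.0474 in luminal sums. Each entered through the sums of the other class and could hardly come out the other way. Ets2 did not pass without plate 1 library 4 (0.0501), plate 2 library 2 (0.0631) or plate 2 library 4 (0.0533).

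Other genes known from luminal progenitors and milk-lineage cells followed the same split. Of 19 listed, 11 were tested between the luminal classes and all 11 passed as higher in secretory cells, against 7.53% of all tested genes. Their median log2 change was 6.45. Csn3, Lcn2, Mfge8, Wfdc18, Lalba and Lbp averaged between 0 and 1.02 transcripts per 10000 in hormone-sensing cells. Like Elf5, Kit and Cd14, they entered the test mostly through their secretory sums and could hardly come out as lower. The list was chosen with earlier results known, and 8 of the 11 genes were not among the 7. Apart from Elf5, Kit and Cd14 they included Csn3, a milk casein, at 70.2 ± 39.5 transcripts per 10000 in secretory and 1.02 ± 0.99 in hormone-sensing cells (SD, n = 3 each), and Lbp, which binds lipopolysaccharide and passes it to Cd14, with 52 against 0 transcripts and at least 28.5-fold higher. Of 12 hormone-sensing genes, 8 were tested and 6 passed as lower, against 5.81% of all tested genes. Among the 6 was Pgr, the progesterone receptor, at 0.416 ± 0.342 in secretory and 10.1 ± 0.98 in hormone-sensing cells. All 6 averaged at most 0.814 in secretory cells. They entered mostly through their hormone-sensing sums and could hardly come out as higher. Of the Toll-like receptor 4 list, 4 of 10 were tested and Cd14 and Lbp passed. Against basal cells, 5 of 7 tested progenitor genes, Kit and Cd14 among the 5, and 3 of 5 hormone-sensing genes passed as higher. The share over all tested genes was 6.7%. Wfdc18 of the progenitor genes and Pgr averaged 0.223 and 0.369 in basal sums. Like Kit and Cd14, they entered mostly through their luminal sums and could hardly come out as lower. Of the basal list, 9 of 10 passed as lower, against 8.07% of all tested genes. Krt5, Trp63 and Id4 had 0 transcripts in luminal sums, and Myh11, Mylk and Cnn1 at most 2. These genes entered through their basal sums and could hardly come out as higher. Cd14 and Nfkbia passed as higher among 3 of the Toll-like receptor 4 list. Cd14 passed in all 16 alternatives, while Nfkbia did not pass (edgeR adjusted p 0.0502 to 0.0905) without cells led by another cell type or without plate 1 library 2, plate 1 library 4, plate 2 library 2 or plate 2 library 3. Among the progenitor genes, Lcn2 did not pass without cells led by another cell type or without plate 1 library 1, 3 or 4 or plate 2 library 2 or 4 (0.0515 to 0.0734). Csn3 did not pass without plate 1 library 3 or 4 or plate 2 library 2 (0.0537 to 0.0866), and Mfge8, at 0.0556, passed with DESeq2, with no filter and without plate 2 library 1.

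**Figure D5:**
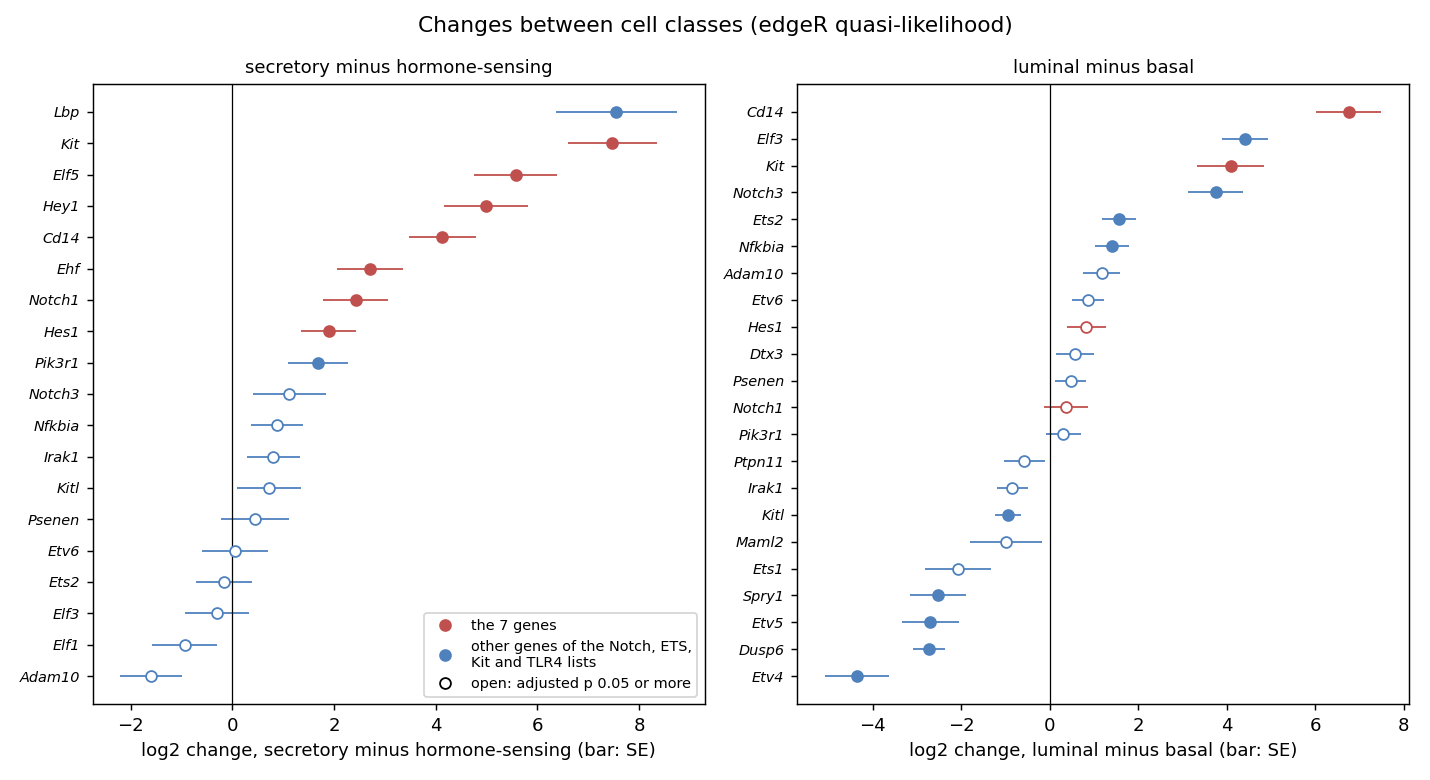
Log2 change (x axes) with its SE for the 7 genes (red) and the other tested genes of the Notch, ETS, Kit and Toll-like receptor 4 lists (blue), secretory minus hormone-sensing on the left and luminal minus basal on the right. Filled points had an edgeR adjusted p under 0.05. On the left all 7 red points are filled and above 0, from 1.89 for Hes1 to 7.47 for Kit, and on the right Notch1 and Hes1 are open.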

How the data were processed

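Per the labels' protocols, libraries were made by SORT-seq, in which CEL-seq2 is automated and wells and molecules carry tags, and read as 75 bp pairs. The submitters' processing notes name BWA (0.6.2-r126) and mm10 without settings. The values deposited by the authors are expected counts: estimated transcript molecules of a gene in a well. Of 533078 values above 0, 533073 lay on the scale of a correction for molecules sharing a 4-base tag (tolerance 1e-06), as read from the values. Values were rounded to whole numbers, and 81 spike-in rows were kept out of totals. All 8 libraries held 101711 to 601955 transcripts.

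Sums of at least 5 cells (luminal and basal) or 3 cells (secretory and hormone-sensing) went into edgeR 4.0.16 in R 4.3.3 (filterByExpr, TMM scaling, quasi-likelihood test, Benjamini-Hochberg adjustment over all genes tested, threshold 0.05), with DESeq2 1.42.0 as an alternative. Standard errors are the log2 change over the root of F and approximate. The secretory comparison had the library as a block, since both classes come from the same library. Shares used exact binomial intervals (scipy 1.17.1), and thinned shares the hypergeometric expectation. Doublets were not called. Intervals and floors cover counting error only.

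The genes, gene lists and rules were chosen with earlier results of these data known. Named besides the 7 genes were up to 6 tested genes of each list with the lowest p, and for each of the 7 the 5 genes most correlated over luminal cells. Genes of the lists shown only as transcript counts (Jag1, Jag2, Dll1) and the motif GGAA were chosen after values were seen. The alternatives for levels were chosen after seeing the data, as were the genes set beside Kit in basal cells.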

Additional observations from a re-analysis of the deposited data

Results flagged for a closer look

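Hey1 in secretory cells was far higher in plate 2 library 3, at 6.57 transcripts per 10000, than in the other 3 libraries. A single cell of that library held 40 of the 115 Hey1 transcripts of secretory cells, and 26 of Elf5, the highest count of both genes in any cell. That cell was deep, with 39510 transcripts against a median of 7144 in secretory cells. Another cell of the library held 5 Hey1 transcripts among 1967, a higher level per transcript. Notch1 in basal cells was far higher in plate 1 library 4, at 2.80 per 10000 over 7 cells, of which 2 were led by markers of another cell type. Of its 29 Notch1 transcripts, 15 and 12 lay in 2 deep cells, of 28744 and 54770 transcripts. Over all basal cells of plate 1, Notch1 stood at 2.04 with the cells led by another type and 2.09 without them. These came from 21 groups of libraries, but Elf5 and Ehf in basal cells, at 0 throughout, could not be flagged. Chance flags about 1 in 20 of independent groups, while the luminal groups here include the secretory cells.

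Transcripts of these genes also lay outside the classed cells. The 6 kept cells of neither class, all led by markers of another cell type, held 4 transcripts of Hes1 and 9 of Cd14. Of these Cd14 transcripts, 6 were in a fibroblast-led cell and 2 in a cell with 139 macrophage and dendritic marker transcripts. The 654 wells not kept held 9 transcripts of Elf5, 17 of Kit, 6 of Hey1, 56 of Hes1, 7 of Notch1, 14 of Ehf and 16 of Cd14.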

How the results depend on the processing

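Between secretory and hormone-sensing cells, 241 genes passed, and with a library left out 11 (plate 2 library 1), 120 (plate 1 library 3) and 140 (plate 2 library 3) did. The 7 genes kept their direction in all 77 alternatives and their side of the threshold in 62. Without the replicate block 231 genes passed, and of the 7 only Hes1 lost its call. No library had 5 cells of both classes, so that alternative gave no value. Between luminal and basal cells, 505 genes passed, 1511 with no filter on low counts, 835 without cells led by another cell type, and 436 to 848 when a library was left out, where removing plate 1 library 1 (761) or plate 1 library 2 (848) moved the count most. Notch1 ranged from -0.011 (without plate 2 library 3) to 0.76 when a library was left out, the 1 reversal among 64 alternatives. Between plates 0 genes passed, 3 with DESeq2, 132 with no filter, and 0 to 1 when a library was left out, and Kit, at -0.40, stood at 0.36 with DESeq2 and ranged from -0.92 to 0.78 when a library was left out, above 0 without plate 1 library 1 (0.78) or plate 2 library 1 (0.37).

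Among other named genes, the change between luminal classes reversed for 6 that had not passed when a library was left out. It ranged from -1.48 to 0.33 for Elf3, -0.44 to 0.20 for Ets2, -0.42 to 0.16 for Etv6, -0.49 to 1.27 for Kitl, -0.26 to 1.76 for Notch3 (all reversed without plate 1 library 3) and -1.69 to 0.13 for Elf1 (without plate 2 library 3). For Etv6 it was also -0.0087 with DESeq2's size factors, -0.045 with DESeq2 and -0.12 with no filter. The cause was not tested. The library numbers did not pair the plates: deviations correlated at -0.14 for libraries 1 and 3 and -0.02 for libraries 2 and 4, and with the number as replicate block 0 genes passed. Levels kept within 1 SD in all 210 alternatives, while 38 of 84 shares and 27 of 72 co-detection values moved, all under thinning or with wells of at least 500 transcripts. With few cells per library, counts of 0 and shares limit what small differences can be seen.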

Other observations

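The 9 basal cells with Kit, 6 in plate 2 library 2 and 3 in plate 2 library 4, differed from the other 41 basal cells of plate 2 in further genes, which were chosen after their values were seen and not tested. Csn3, the milk casein, had 467 transcripts in the 9 cells, 15.0 per 10000, and 60 in the 41 cells, 0.952 per 10000. Within library 2 the values were 6.74 and 0.943, and within library 4 they were 28.9 and 0.934. Few cells carried these sums: 1 cell of library 4 held 228 of the 467 transcripts, and 2 of the 6 cells of library 2 held 118 of its 131. The other 4 cells of library 2 stood at 1.10 per 10000, close to the 0.943 of the cells without Kit. Csn3 was found in all 9 cells with Kit and in 23 of the 41 without.

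Krt14, a basal keratin, had 7 transcripts in the 9 cells, 0.225 per 10000, and 279 in the 41 cells, 4.43 per 10000. Within library 2 it stood at 0.309 and 2.85, and within library 4 at 0.086 and 7.09. Krt5, its partner keratin, stood at 2.73 and 6.58, while Trp63, the transcription factor of basal cells, stood at 1.99 and 2.52.

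Of the 7 genes, Hes1 stood at 3.64 per 10000 in cells with Kit and 1.36 in cells without, and Notch1 at 1.58 and 0.746. For Hes1, 2 of the 9 cells held 73 of the 113 transcripts, and the other 7 stood at 1.82. Without its 2 highest cells, Notch1 stood at 1.14. Leaving out the highest cells of a gene was chosen after seeing the data. Elf5 and Ehf were at 0 in both groups. Kitl, the ligand of Kit, stood at 2.06 in cells with Kit and 4.82 in cells without.

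The median depth was 31393 transcripts in the 9 cells and 13348 in the 41, so the chance of finding Kit differed between them. The summed contractile genes had a median of 51.9 per 10000 in cells with Kit and 162 in cells without, and the luminal keratins 1.34 and 1.42. Mast cell markers had 3 transcripts, all in 1 cell, and melanocyte markers 14 in the 9 cells, against 1 and 16 in the 41. Only 2 of 9 listed mast cell genes and 3 of 6 melanocyte genes had a row in the data, so these types were only partly looked at. The part of depth and of these markers in the result was not tested.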
